A study of Mus musculus with 10 samples.

Results

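The IGF1 axis and the IGF-binding proteins were followed in left atrial RNA of mice whose hearts pumped against a narrowed aorta. The set held 10 named genes, Igf1, Igf1r, Insr, Irs1 and Igfbp2 to Igfbp7, chosen by gene symbol from 48397 symbols in the count tables. All 10 passed the filter on low counts. The TAC group (5 libraries) came from wild-type mice that had transverse aortic constriction, a surgical narrowing of the aortic arch, at 2 months of age and were sampled 2 weeks later. The Sham group (5 libraries) came from wild-type mice of the same age and time point after a mock operation. No transgene or Cre was used in either group, and the series' design text adds that the mice were C57BL/6J males. Whether every library stands for its own animal is not stated in the labels. The p-values therefore describe the spread among these libraries alone, part of which may be technical. Sources differ on the material. The sample labels name the left atrium and a low-input RNA kit (Nugen Trio), and the design text names the left appendage and a TruSeq kit.

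IGF1 is a secreted growth factor that acts on the receptor tyrosine kinase IGF1R and, more weakly, on the insulin receptor INSR. Both receptors phosphorylate docking proteins such as IRS1, which recruit PI3-kinase and so switch on AKT and mTOR. IGF-binding proteins hold IGFs outside the cell, where they prolong IGF half-life, withhold it from receptors or release it when proteases cut them, and in the heart IGF1 is known for driving growth and survival of cardiomyocytes.

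The binding protein genes diverged after TAC. Igfbp7, Igfbp3 and Igfbp2 were higher in TAC by 5.55-fold, 3.53-fold and about 41.4-fold (the last against 8 counts in all Sham libraries), and Igfbp5 and Igfbp6 were lower by 2.73-fold and 2.30-fold. Insr and Irs1 were lower by 1.39-fold and 1.57-fold. Igf1 was 1.33-fold higher by a call that several alternatives ended, while Igf1r and Igfbp4 were not called. In all, 4 of the 10 genes were higher and 4 lower at an adjusted p under 0.05 (edgeR quasi-likelihood test, Benjamini-Hochberg over 15175 genes). The comparison moved much of the transcriptome, with 28.9% of tested genes called higher, 27.9% lower and 56.8% in either direction. Every TAC library lay above every Sham library for 3 of the 10 genes and below for 3, against 21.5% and 20.2% of all tested genes. These counts lie near that background and describe the 10 genes only. Igfbp2 is among the 4 higher and the 3 lying above, although it passed the filter on low counts through its TAC libraries. Its place in those counts is therefore not a result.

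Total counts over genes ran from 29493200 to 41358617 in TAC libraries and from 17117306 to 43956384 in Sham libraries, and Sham replicates 1 and 2 were the shallow ones. Mitochondrially encoded genes took 9.31% to 14.2% of counts in TAC and 14.6% to 17.4% in Sham. Levels are given as CPM, a count divided by the effective size of its library in units of 1e+06 counts. That size includes TMM scaling, which sets the bulk of genes to equal levels between libraries. Scaled by library size alone, tested genes had a median log2 fold change of 0.37 in place of 0.01, and 7741 genes were called higher and 1929 lower. Under that scaling 5 of the 10 genes were higher and 2 lower. In bulk RNA, fewer cells of a type and less RNA per cell cannot be told apart.

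Sequences just before the transcription start are shown for the 4 binding protein genes whose RNA changed most, so that the promoter can be read beside its response. Each is the 150 bases before the RefSeq start (GRCm38.p6), written along the gene's strand. They are chr5:77408046-77408195 (minus strand) for Igfbp7, chr11:7213924-7214073 (minus) for Igfbp3, chr1:72824330-72824479 (plus) for Igfbp2 and chr1:72874866-72875015 (minus) for Igfbp5. Capitals mark the letters of a GC box (GGGCGG, or CCGCCC on the other strand) or of an E-box (CACGTG).
Igfbp7: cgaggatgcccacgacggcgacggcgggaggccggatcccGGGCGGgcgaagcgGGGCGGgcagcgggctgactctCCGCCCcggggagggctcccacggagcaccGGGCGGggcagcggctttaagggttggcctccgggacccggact
Igfbp3: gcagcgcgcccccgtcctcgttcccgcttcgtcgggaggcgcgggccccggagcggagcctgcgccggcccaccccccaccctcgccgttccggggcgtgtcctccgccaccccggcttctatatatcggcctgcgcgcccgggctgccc
Igfbp2: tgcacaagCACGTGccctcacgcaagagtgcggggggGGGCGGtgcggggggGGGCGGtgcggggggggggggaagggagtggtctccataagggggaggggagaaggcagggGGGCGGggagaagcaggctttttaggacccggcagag
Igfbp5: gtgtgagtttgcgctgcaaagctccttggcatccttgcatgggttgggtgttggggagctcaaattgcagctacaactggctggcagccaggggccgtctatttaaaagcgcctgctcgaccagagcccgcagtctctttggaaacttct
The Igfbp7 window held 4 GC-box matches and the Igfbp2 window 3 with 1 E-box match, and no matches overlapped each other there. Neither the Igfbp3 nor the Igfbp5 window held any of the letters searched, which also took in the TATA-box letters TATAAA, the letters TGACTCA known for AP-1 factors, the letters GGAATG known for TEAD factors and the letters TGTTTAC known for FOXO factors, all on both strands. G and C made up 78.0% of the Igfbp7 window, 78.7% of Igfbp3, 72.0% of Igfbp2 and 55.3% of Igfbp5. Promoter entries were matched for 9 of the 10 genes, Insr having no entry. Among these 9, GGGCGG was found in 3, CACGTG in 2, TATAAA in 2 and the other motifs in 0. Over 32851 promoter windows of the same length, 28.6% held GGGCGG, 4.30% CACGTG, 7.57% TATAAA, 2.84% the AP-1 letters, 7.59% GGAATG and 1.80% TGTTTAC. A match is a description of letters and not a bound site.

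Among the ligand and receptor genes, Igf1 had a modest and variable difference. Igf1 (chromosome 10, 87858265 to 87937042, plus strand, GRCm38) had 79.2, 116, 72.3, 108 and 66.4 CPM in TAC replicates 1 to 5, against 72.6, 64.4, 55.1, 69.6 and 70.8 CPM in Sham replicates 1 to 5. TAC replicates 1, 2 and 4 lay above all Sham libraries and the other two lay within the Sham range, so the groups overlapped. The log2 fold change was 0.41 (SE 0.16, adjusted p = 0.040, edgeR). Leaving out TAC replicate 2 or 4, or Sham replicate 2, 3, 4 or 5, ended the call (adjusted p from 0.0562 to 0.0944), and so did limma voom (0.0746) and leaving out both shallow Sham libraries (0.0938). Over 21 alternatives the adjusted p of Igf1 ran from 0.00131 to 0.0944.

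Igf1r, the main receptor for IGF1 (chromosome 7, 67952827 to 68233668, plus strand), had 53.9, 69.1, 69.2, 80.3 and 60.0 CPM in TAC, against 64.0, 49.7, 62.1, 56.8 and 63.0 CPM in Sham. The groups overlapped, and the log2 fold change of 0.17 (SE 0.11) was not called (adjusted p = 0.206, edgeR). It was called when TAC replicate 1 was left out (0.26, adjusted p = 0.0437) and by library size alone (0.54, adjusted p = 0.00219). Over the alternatives the adjusted p ran from 0.00219 to 0.418.

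Insr, the insulin receptor gene (chromosome 8, 3122061 to 3279617, minus strand), had 185, 163, 195, 178 and 167 CPM in TAC, against 253, 229.7, 233, 246 and 275 CPM in Sham. Every TAC library lay below every Sham library (log2 fold change -0.48, SE 0.08, adjusted p = 0.00032, edgeR). Irs1, the docking protein gene (chromosome 1, 82233101 to 82291416, minus strand), had 16.8, 12.2, 14.4, 18.0 and 17.9 CPM in TAC, against 23.3, 23.8, 26.2, 28.04 and 23.1 CPM in Sham. Its groups did not overlap either (-0.65, SE 0.11, adjusted p = 0.000504, edgeR). Both calls were lost under library size scaling, at -0.12 for Insr (adjusted p = 0.195, range 2.03e-08 to 0.195) and -0.29 for Irs1 (adjusted p = 0.0563, range 2.46e-06 to 0.0563). Of the exonic bases of Irs1, 30.9% are shared with Gm9747 on the opposite strand, and the strand setting of the counts is not given in the sources used here.

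**Figure D1:**
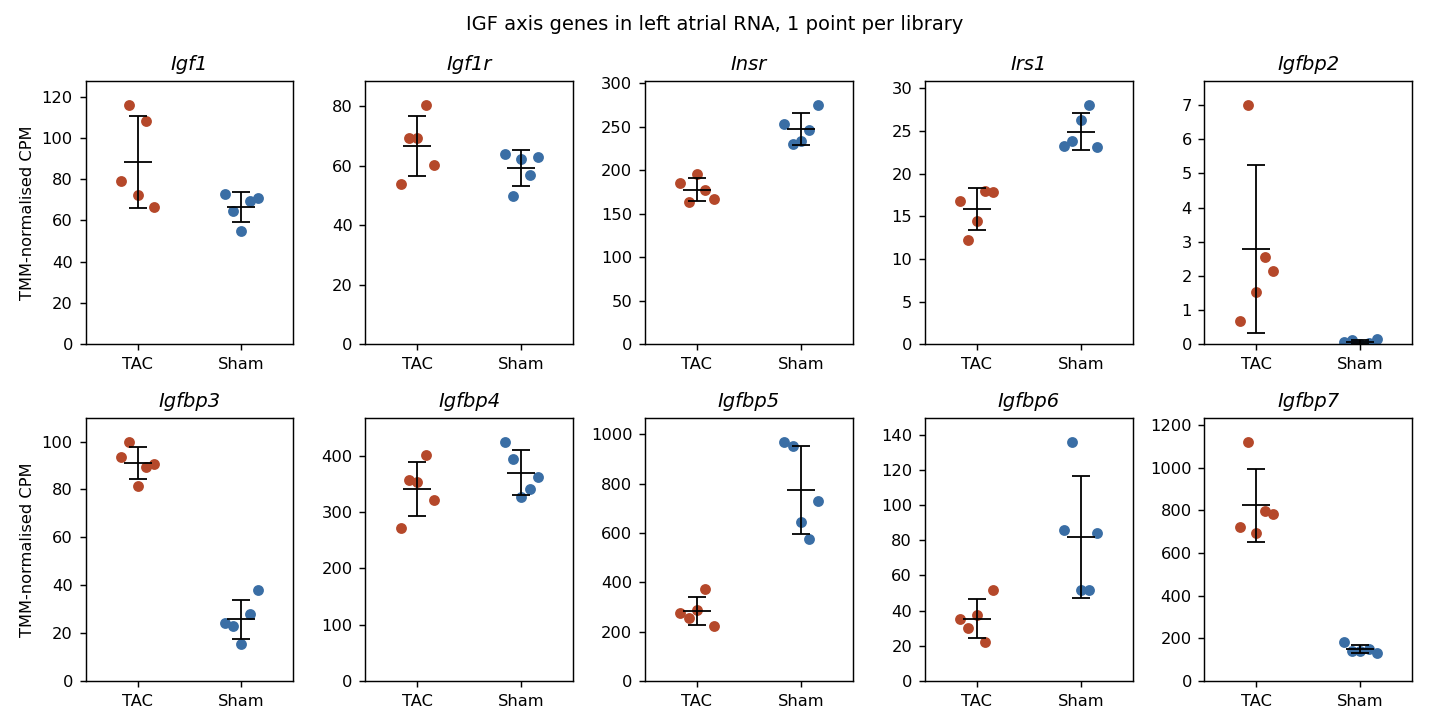
TMM-normalised CPM of the 10 genes, 1 point per library, with TAC left and Sham right in each panel, and bars giving the mean and SD (n = 5 each). Igfbp7, Igfbp3 and Igfbp2 lie wholly higher in TAC, Insr, Irs1 and Igfbp5 wholly lower, and Igf1, Igf1r, Igfbp4 and Igfbp6 overlap.

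Ratios of 2 genes within a library do not depend on how libraries are scaled, and 7 such ratios were tested by exact permutation of the libraries, two-sided, for which the smallest possible p is 0.00794. Igf1r relative to Insr, per kilobase of exonic length, was 0.308 ± 0.0517 in TAC and 0.196 ± 0.0165 in Sham (SD, n = 5). The log2 difference of this ratio was 0.64 (exact permutation, p = 0.00794, adjusted p = 0.0111 over the 7 ratios). Every TAC library lay above every Sham library, from -2.07 to -1.43 in TAC and from -2.50 to -2.20 in Sham on the log2 scale. The balance of these receptor genes thus differed between the groups under any scaling. Igf1r itself was not called, and the CPM of Insr alone already separated the groups. Igf1r relative to Irs1 was also higher in all TAC libraries (2.34 ± 0.56 in TAC, 1.30 ± 0.186 in Sham, log2 difference 0.83). The CPM ranges of Igf1r and Irs1 already fixed that separation, so this ratio is given as a description. Ratios fixed in this way stayed among the 7, which lowers the adjusted p for Igf1r over Insr and for Pappa over Igfbp4. Igf1 relative to Igf1r had a log2 mean of 1.15 ± 0.28 in TAC and 0.93 ± 0.21 in Sham, and the difference of 0.22 did not pass (exact permutation, adjusted p = 0.206).

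Igfbp7, whose protein binds IGFs weakly and is deposited around blood vessels, was the most abundant of the 10 transcripts per kilobase in TAC. The gene (chromosome 5, 77349240 to 77408041, minus strand) had 724, 1123, 695, 795 and 784 CPM in TAC, against 182, 143, 141, 148 and 130.1 CPM in Sham. All TAC libraries lay far above all Sham libraries, with TAC replicate 2 highest. The log2 fold change was 2.47 (SE 0.15, adjusted p = 6.45e-07, edgeR). Of its exonic bases 7.03% are shared with Polr2b on the opposite strand.

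Igfbp3, the main IGF carrier of the circulation (chromosome 11, 7206086 to 7213923, minus strand), had 93.7, 99.95, 81.5, 89.3 and 90.6 CPM in TAC, against 24.4, 22.9, 15.5, 28.1 and 37.9 CPM in Sham. TAC libraries were tightly grouped and the lowest of them was above the highest Sham library (log2 fold change 1.82, SE 0.19, adjusted p = 1.61e-05, edgeR). Relative to Igfbp4, the Igfbp3 level per kilobase was 0.384 ± 0.069 in TAC and 0.0988 ± 0.0328 in Sham (log2 difference 2.00). The CPM ranges of the 2 genes already fixed the separation of this ratio, which is given as a description.

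Igfbp2, a binding protein that can also bind integrins, was scarce in Sham atria. The gene (chromosome 1, 72824503 to 72852474, plus strand) had 29, 281, 52, 87 and 81 counts in TAC, against 1, 2, 0, 1 and 4 counts in Sham. This amounted to 0.671, 7.001, 1.54, 2.55 and 2.14 CPM in TAC and to 0.0621, 0.128, 0, 0.0258 and 0.150 CPM in Sham. The groups did not overlap, but TAC replicate 2 had more than the other TAC libraries. Pooled over libraries, 530 counts in TAC gave 2.80 CPM (95% exact Poisson interval 2.57 to 3.05), and 8 counts in Sham gave 0.0615 CPM (0.0265 to 0.121), intervals that cover counting error only. The fitted log2 fold change was 5.37 (SE 0.83, adjusted p = 0.00023, edgeR), 4.69 without TAC replicate 2 and 5.99 without Sham replicate 5, and its size is imprecise because of the few Sham counts. Igfbp2 passed the filter on low counts through its TAC libraries, so that a gene of its kind had to differ to be tested.

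Igfbp5, whose protein binds matrix as well as IGFs, went the other way. The gene (chromosome 1, 72857932 to 72874884, minus strand) had 277, 254, 287, 373 and 224 CPM in TAC, against 969.9, 953, 643, 575 and 729.5 CPM in Sham. Every TAC library lay below every Sham library (log2 fold change -1.45, SE 0.18, adjusted p = 4.16e-05, edgeR). Igfbp2 and Igfbp5 point towards each other with 5457 bases between them, and they changed in opposite directions. The log2 ratio of Igfbp2 to Igfbp5 per kilobase was -5.35 ± 1.27 in TAC and -11.74 ± 1.28 in Sham (SD, n = 5), a difference of 6.39 with 0.5 added to each count and of 4.53 with 5 added. Since neither gene overlapped between the groups and they moved apart, their ratio had to separate the groups, and it is given as a description.

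Igfbp6, which prefers IGF2 to IGF1 (chromosome 15, 102144362 to 102149511, plus strand), had 35.5, 30.2, 37.4, 22.3 and 51.9 CPM in TAC, against 86.0, 136, 51.4, 51.5 and 84.3 CPM in Sham. TAC replicate 5 lay just above Sham replicates 3 and 4, so the groups overlapped narrowly (log2 fold change -1.20, SE 0.29, adjusted p = 0.0045, edgeR). Relative to Igfbp7, the Igfbp6 level per kilobase was 0.0487 ± 0.0185 in TAC and 0.607 ± 0.273 in Sham (log2 difference -3.62). This ratio too had to separate the groups, given the CPM ranges of its genes, and is a description. Igfbp4, a binding protein that mainly withholds IGFs from receptors (chromosome 11, 99041244 to 99054392, plus strand), had 272, 357, 353, 402 and 321 CPM in TAC, against 425, 394, 326, 341 and 363 CPM in Sham. The groups overlapped and the log2 fold change of -0.12 (SE 0.11) was not called (adjusted p = 0.399, edgeR). By library size alone it had the opposite sign, 0.24 (adjusted p = 0.137), and the adjusted p ran from 0.137 to 0.923 over the alternatives.

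**Figure D2:**
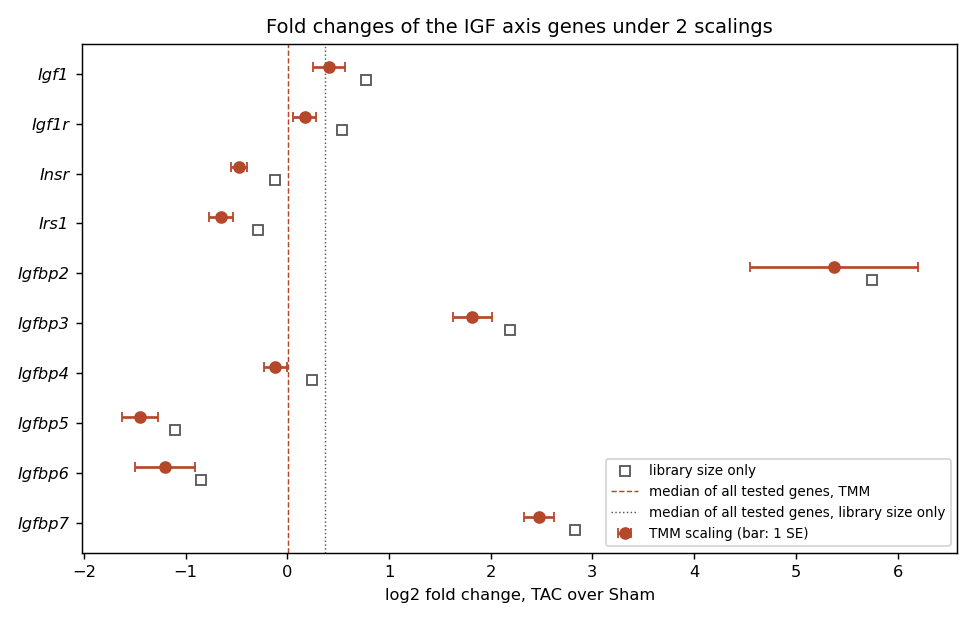
Log2 fold change (TAC over Sham) of the 10 genes, with filled circles for TMM scaling (bar 1 SE) and open squares for library size only; vertical lines give the median of all tested genes, 0.01 and 0.37. Igfbp7, Igfbp3, Igfbp2 and, less far, Igf1 lie right of both lines, and Igfbp5, Igfbp6, Irs1 and Insr left of both, while Igfbp4 crosses 0 between scalings.

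Per kilobase of exonic length, the make-up of the binding protein RNA differed between the groups. In TAC the order of mean CPM per kilobase was Igfbp7 (682 ± 142), Igfbp4 (77.2 ± 10.9), Igfbp5 (47.1 ± 9.31), Igfbp6 (31.9 ± 9.81), Igfbp3 (29.1 ± 2.15) and Igfbp2 (1.51 ± 1.33). Only Igfbp7 stood clear of its next lower neighbour among the first 4, and the ranges from Igfbp4 to Igfbp3 overlapped pair by pair. In Sham the order was Igfbp5 (129 ± 29.9), Igfbp7 (123 ± 16.2), Igfbp4 (83.8 ± 9.08), Igfbp6 (73.6 ± 31.2), Igfbp3 (8.23 ± 2.62) and Igfbp2 (0.0396 ± 0.0349), where Igfbp5 and Igfbp7 overlapped, as did Igfbp4 and Igfbp6. Of the other members, also in CPM per kilobase, Insr was at 12.9 ± 0.949 in TAC and 18.0 ± 1.32 in Sham, and Igf1 at 8.93 ± 2.25 in TAC and 6.72 ± 0.714 in Sham. Igf1r was at 3.96 ± 0.60 in TAC and 3.52 ± 0.354 in Sham, and Irs1 at 1.74 ± 0.274 in TAC and 2.72 ± 0.236 in Sham. Among these low levels Irs1 and Igfbp2 overlapped in TAC, and Igfbp3 and Igf1, and Igf1r and Irs1, overlapped in Sham.

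As a share of the summed Igfbp2 to Igfbp7 level per kilobase, Igfbp7 made up 78.1% ± 3.08 in TAC and 29.9% ± 4.55 in Sham (SD, n = 5). Igfbp5 made up 5.55% ± 1.39 in TAC and 30.7% ± 2.09 in Sham. Igfbp4 made up 8.999% ± 1.48 in TAC and 20.3% ± 1.57 in Sham, and Igfbp6 3.78% ± 1.39 in TAC and 17.2% ± 4.81 in Sham. Igfbp3 made up 3.39% ± 0.368 in TAC and 2.02% ± 0.738 in Sham. Per kilobase, Igfbp7 alone was the majority of these transcripts in every TAC library (75.3% to 83.3%) and in no Sham library (23.8% to 34.8%). The shares depend on length. By counts alone Igfbp7 was 51.96% in TAC (47.2% to 60.02%) and 10.8% in Sham, and so no majority in TAC replicates 3 and 4. By the same measure Igfbp5 was 18.1% in TAC and 54.9% in Sham, and Igfbp4 21.7% in TAC and 26.7% in Sham. The summed level per kilobase was 869 ± 144 in TAC and 417 ± 73.2 in Sham, while summed CPM without length scaling was 1578 ± 196 in TAC and 1400.2 ± 257 in Sham. No test was run on shares or sums.

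**Figure D3:**
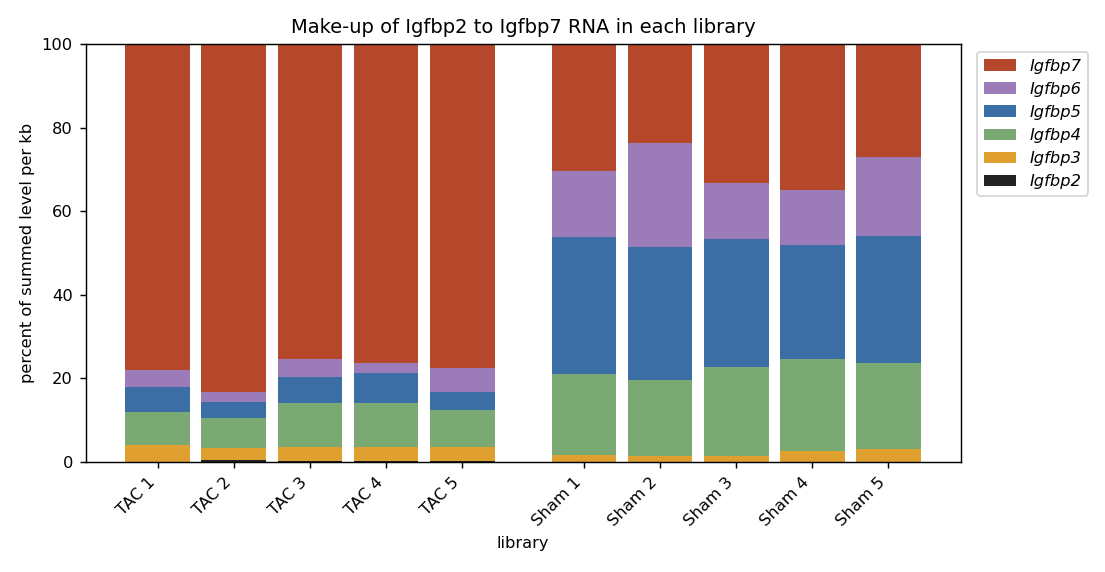
Percent of the summed Igfbp2 to Igfbp7 level per kilobase in each of 10 libraries, TAC left and Sham right. Igfbp7 fills 75.3% to 83.3% of each TAC bar, against 23.8% to 34.8% of each Sham bar, and the Igfbp5 and Igfbp6 segments are larger in Sham.

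**Figure D4:**
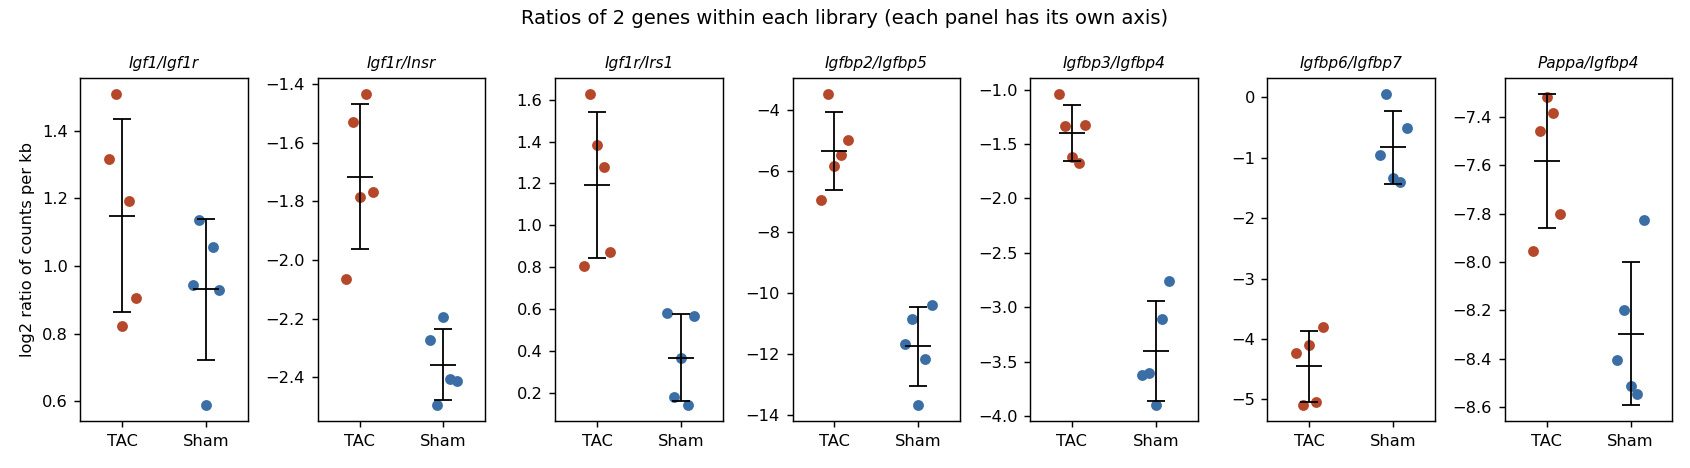
Log2 ratio of 2 genes per kilobase in each library, 1 panel per ratio with TAC left and Sham right; bars give the mean and SD (n = 5 each) and each panel has its own axis. Groups overlap for Igf1 over Igf1r and for Pappa over Igfbp4 and not for the other 5 ratios.

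Markers of several cell types moved between the groups as well. Each count of called markers is to be read beside the 28.9% of all tested genes called higher and the 27.9% called lower. The summed CPM of 9 atrial cardiomyocyte markers was 35340 to 45742 in TAC and 69482 to 81318 in Sham, and 7 of them were lower and 1 (Nppa) higher. The 6 activated fibroblast markers summed to 639 to 1793 CPM in TAC and 131 to 237 CPM in Sham, with 4 higher. The 8 fibroblast markers summed to 4320 to 8152 CPM in TAC and 4495 to 6404 CPM in Sham. Of them 4 were higher (Tcf21, Lum, Col1a1 and Col1a2) and 2 lower (Dcn and Gsn). That sum hides opposite moves of its largest parts. Gsn had a mean of 1000.1 CPM in TAC and 3264 CPM in Sham. Col1a1 had 1293 CPM in TAC and 179 CPM in Sham, and Col1a2 1744 CPM in TAC and 272 CPM in Sham. Macrophage markers (8 of 9 higher) summed to 837 to 1350.1 CPM in TAC and 363 to 628 CPM in Sham, and mural markers (5 higher, 1 lower of 8) to 705 to 947 CPM in TAC and 436 to 527 CPM in Sham. Endothelial markers (4 higher, 1 lower of 8) summed to 973 to 1369 CPM in TAC and 944 to 1336 CPM in Sham. The 5 proliferation markers, all higher, summed to 119 to 471 CPM in TAC and 2.44 to 18.9 CPM in Sham. Adipocyte markers (5 of 5 tested lower) summed to 0.523 to 19.1 CPM in TAC and 22.6 to 75.9 CPM in Sham, mesothelial markers (1 of 7 higher) to 152 to 383 CPM in TAC and 108 to 365 CPM in Sham, and Schwann cell markers (3 of 4 tested lower) to 25.3 to 37.8 CPM in TAC and 44.4 to 55.8 CPM in Sham. Ventricular markers summed to 17.9 to 327 CPM in TAC and 21.2 to 540.2 CPM in Sham (1 higher and 1 lower of 3 tested), and lymphocyte markers to 1.94 to 4.26 CPM in TAC and 2.06 to 7.20 CPM in Sham (1 higher and 1 lower of 3 tested). The ventricular and lymphocyte counts lie near the shares of all tested genes. No marker was at 0 in all libraries of a group. TAC replicate 2 had the most Igf1, Igfbp2, Igfbp3 and Igfbp7 among TAC libraries. It also had the highest TAC sums of activated fibroblast (1793 CPM), fibroblast (8152), macrophage (1350.1), mural (947) and lymphocyte (4.26) markers. For the remaining lists another TAC library had the highest sum. The part of cell composition in the values of the IGF genes was not tested.

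Genes whose profile over the 10 libraries was nearest to that of 2 members were named by a fixed measure, the root-mean-square difference in log2 CPM after each gene's Sham mean was subtracted. Because only the Sham mean is subtracted, the measure mostly matches genes by the size of their TAC difference. Nearest to Igfbp2 were Col8a2 (0.50), Col12a1 (0.51) and Eln (0.53), which encode collagen chains and elastin. Their log2 fold changes were 5.07, 4.26 and 4.54. Igfbp2 was taken as the largest increase, had 8 counts in Sham and passed the filter through its TAC libraries. A link between these genes and Igfbp2 was not tested. Nearest to Igfbp5 were Atp2b4 (0.20), a plasma membrane calcium pump gene, Slc7a4 (0.24) and Peg13 (0.24), an imprinted non-coding RNA. Col8a2 was 33.6 ± 23.0 CPM in TAC and 1.05 ± 0.325 CPM in Sham, Eln 3054 ± 1879 CPM in TAC and 131 ± 49.5 CPM in Sham, and Atp2b4 38.1 ± 4.32 CPM in TAC and 97.8 ± 13.3 CPM in Sham (SD, n = 5).

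The wider pathway was described through 8 lists of 70 genes, of which 64 were tested. In all, 19 were higher and 25 lower, with a median log2 fold change of -0.05 against 0.01 for all tested genes. These are 29.7% higher and 39.1% lower, against 28.9% and 27.9% of all tested genes, so the higher share lay at the background. Under library size scaling 34 were higher and 12 lower, so the balance of directions rested on the scaling. Of all 15175 tested genes, 7741 were higher and 1929 lower under that scaling.

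Among other ligands, receptors and binding proteins, 3 of 7 genes were tested and 1 was higher and 1 lower. That is 33.3% each way, near the 28.9% and 27.9% of all tested genes. Igf2, the second IGF ligand, had 197, 51.7, 159, 443 and 162 CPM in TAC, against 149, 137, 159, 124 and 85.1 CPM in Sham. TAC replicates 2 and 4 lay at opposite ends, and the log2 fold change of 0.63 (SE 0.43) was not called (adjusted p = 0.237, edgeR), but was 0.90 (adjusted p = 0.0364) without TAC replicate 2, within a range of 0.0364 to 0.742. Of its exonic bases 64.6% are shared with Gm49394 on the same strand or Igf2os on the other. Igfbpl1, a relative of the binding proteins, had 2.78, 1.02, 1.51, 0.910 and 0.923 CPM in TAC, against 26.1, 22.4, 17.8, 27.4 and 33.4 CPM in Sham, or a log2 fold change of -4.14 (SE 0.32, with an adjusted p = 2.95e-06, edgeR). No TAC library reached a Sham library. Igf2r, which takes up and degrades IGF2, was 315 ± 28.4 CPM in TAC and 269 ± 18.1 CPM in Sham (0.23, SE 0.08, adjusted p = 0.0354), a call lost under 7 of its alternatives that drop libraries and in the fit with a replicate block (adjusted p = 0.0633), within a range of 0.000159 to 0.13. Igfbp1 and Ins2 had 0 counts in all libraries, where 3 counts over a group would be 0.0159 CPM in TAC and 0.0231 CPM in Sham.

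Of 9 genes listed for proteases that may cut binding proteins, or for inhibitors of proteases, 5 were higher and 1 lower (median 0.63). That is 55.6% and 11.1%, where 28.9% and 27.9% of all tested genes were called. Whether each product, such as that of Prss23, acts on a binding protein was not tested. Pappa, whose protease frees IGF from IGFBP4, was 4.57 ± 1.37 CPM in TAC and 2.98 ± 0.744 CPM in Sham (0.63, SE 0.25, adjusted p = 0.0461, edgeR). That call was lost without TAC replicate 2, 3 or 4 or Sham replicate 1, 2, 3 or 4, without both shallow Sham libraries, after thinning and with a replicate block, and its adjusted p ran from 0.00442 to 0.107. Relative to Igfbp4 its log2 ratio per kilobase was higher in TAC by 0.71 (exact permutation, p = 0.0159, adjusted p = 0.0185 over the 7 ratios). The lowest TAC library still lay below the highest Sham library. Stc2, which encodes an inhibitor of that protease, was 32.3 ± 10.7 CPM in TAC and 17.3 ± 3.82 CPM in Sham (0.90, SE 0.24). The cathepsin gene Ctsd (0.69, SE 0.09) and the serine protease gene Prss23 (1.124, SE 0.17) rose as well, and share 34.4% and 22.9% of exonic bases with other genes. Htra3, another serine protease gene, fell to 123 ± 15.6 CPM in TAC, against 198 ± 24.4 CPM in Sham. Of this list, Stc2, Ctsd, Prss23 and Htra3 kept their calls under all 21 alternatives.

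Growth hormone raises Igf1 through the receptor GHR, JAK2 and STAT5, and of 8 genes of that input 2 were higher and 4 lower (median -0.09). Of all tested genes 28.9% were called higher, near the share here, and 27.9% lower. Stat5b had 93.4, 70.1, 79.7, 77.0 and 80.1 CPM in TAC, against 217, 208, 219.7, 237 and 215 CPM in Sham (log2 fold change -1.45, SE 0.08, adjusted p = 5.08e-07, edgeR). Stat5a (-1.13, SE 0.13) and Ghr (-0.54, SE 0.08) were lower too, Ghr with adjusted p = 0.0728 by library size alone (range 1.69e-08 to 0.0728). Cish, a STAT5 target that damps the same pathway, had 97.6, 51.4, 63.1, 28.5 and 67.9 CPM in TAC, against 23.0, 21.6, 21.1, 19.1 and 26.8 CPM in Sham (1.47, SE 0.26), and 11.5% of its exonic bases are shared with genes on the opposite strand. Every TAC library was above every Sham library for Cish, and below for Stat5b. Socs2, another feedback inhibitor and chosen after its values were seen, was 75.5 ± 22.6 CPM in TAC and 41.5 ± 9.13 CPM in Sham (0.87, SE 0.22). By library size alone 4 of the 8 were higher and 2 lower, where 7741 of all 15175 tested genes were higher and 1929 lower.

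**Figure D5:**
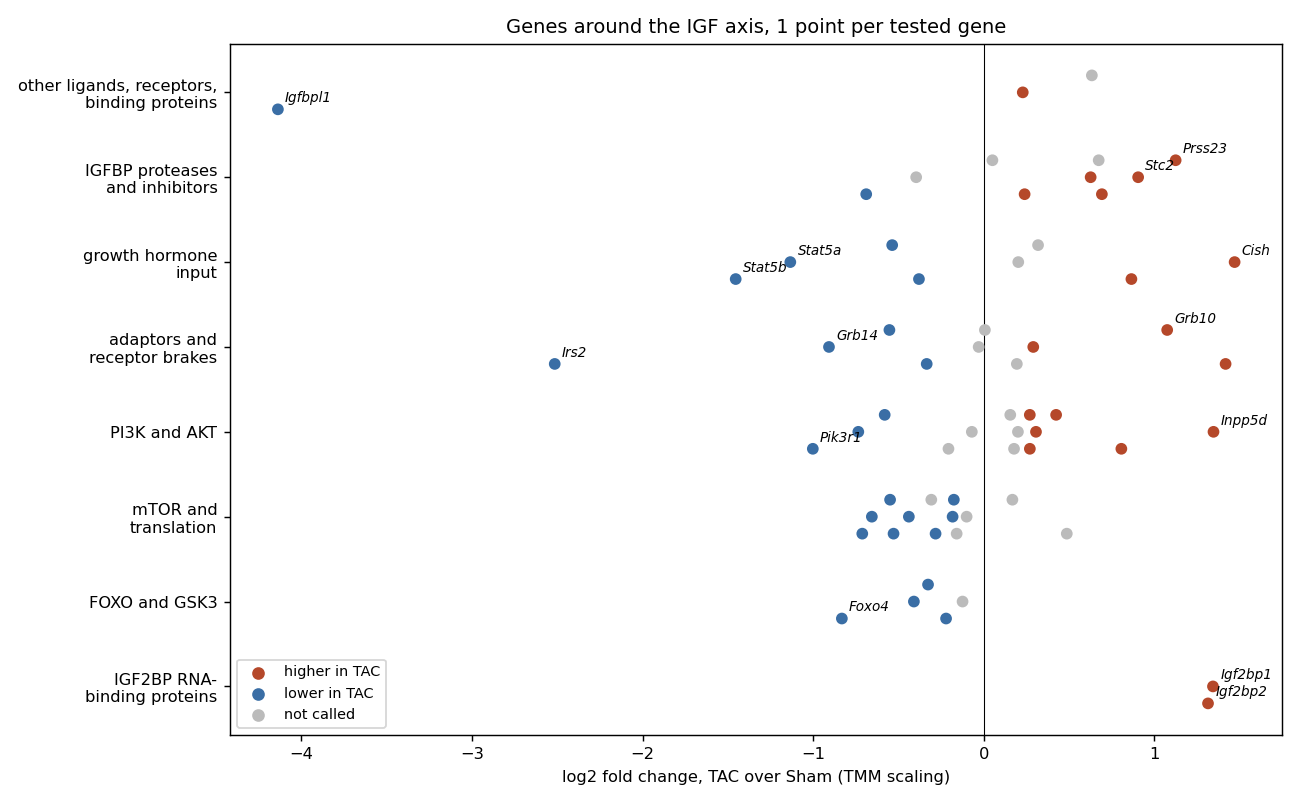
Log2 fold change (TAC over Sham, TMM scaling) of 64 tested genes around the IGF axis, 1 point per gene, in 8 rows by list, with genes past an adjusted p of 0.05 in colour and names for those of the naming rule beyond 0.8. Igfbpl1 (-4.14) and Irs2 (-2.51) lie farthest left, and the mTOR and FOXO rows hold no gene called higher by edgeR under TMM scaling, against 4 and 1 by library size alone.

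Of 10 tested adaptors and receptor brakes, 3 were higher and 4 lower (median -0.01), against 28.9% and 27.9% of all tested genes. Irs2, a docking protein like IRS1, had 12.1, 13.9, 13.9, 11.7 and 12.48 CPM in TAC, against 29.7, 62.3, 41.6, 64.9 and 167 CPM in Sham (log2 fold change -2.51, SE 0.41, adjusted p = 0.000384, edgeR). TAC libraries hardly differed among themselves while Sham replicate 5 stood above the other Sham libraries, and without it the log2 fold change was -1.96. The 2 receptor-binding adaptors that inhibit signalling moved apart. Grb10 had 120.1, 163, 144, 164 and 149 CPM in TAC, against 66.9, 69.1, 64.0, 69.2 and 82.0 CPM in Sham (1.07, SE 0.10), whereas Grb14 was 81.1 ± 12.4 CPM in TAC and 152 ± 18.2 CPM in Sham (-0.91, SE 0.11). Grb2, the adaptor to the RAS pathway, was 86.3 ± 5.14 CPM in TAC and 127 ± 8.23 CPM in Sham (-0.55, SE 0.07). By library size alone 6 were higher and 3 lower, where 7741 of all 15175 tested genes were higher and 1929 lower.

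Of 14 PI3-kinase and AKT genes, 6 were higher and 3 lower (median 0.19), or 42.9% and 21.4% of the list, against 28.9% and 27.9% of all tested genes. Pik3r1, the main regulatory subunit gene of PI3-kinase, was 110.2 ± 20.7 CPM in TAC and 221 ± 28.1 CPM in Sham (-1.002, SE 0.13, adjusted p = 6.25e-05, edgeR). Pdpk1, which encodes a kinase that activates AKT, was lower (-0.58, SE 0.11), though not past the threshold by library size alone (adjusted p = 0.0818, range 2.88e-05 to 0.0818), and Phlpp1, a phosphatase that turns AKT off, was lower at 28.2 ± 0.807 CPM in TAC and 46.9 ± 3.28 CPM in Sham. Inpp5d, a lipid phosphatase gene typical of blood cells, was 21.4 ± 4.59 CPM in TAC and 8.40 ± 1.003 CPM in Sham (1.35, SE 0.15). Macrophage markers were higher as given above, and a link between them and Inpp5d was not tested. By library size alone 10 were higher and 2 lower, where 7741 of all 15175 tested genes were higher and 1929 lower.

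Of 13 mTOR and translation genes, 8 were lower and 0 higher (median -0.28, edgeR), but by library size alone 4 were higher and 2 lower. The 8 are 61.5% of the list, against 27.9% of all tested genes called lower and 28.9% higher. With library size scaling, 7741 of all 15175 tested genes were higher and 1929 lower. At an unadjusted p under 0.05 the counts were 8 lower and 0 higher, and DESeq2 and limma voom each called 7 lower and 0 higher. Eif4ebp2, a repressor of translation that mTOR switches off, was 34.7 ± 2.79 CPM in TAC and 54.7 ± 4.90 CPM in Sham (-0.66, SE 0.08, adjusted p = 4.5e-05, edgeR). Tsc2 (-0.55, SE 0.07) and Tsc1 (-0.44, SE 0.08), whose proteins together restrain mTOR, were lower, with adjusted p of 0.0577 and 0.408 by library size alone. Their ranges of adjusted p were 2.33e-12 to 0.0577 for Tsc2 and 2.61e-06 to 0.408 for Tsc1. Sesn1, a stress-induced inhibitor of mTOR, was 97.6 ± 10.1 CPM in TAC and 160 ± 39.9 CPM in Sham (-0.71, SE 0.14).

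Of 5 FOXO and GSK3 genes, factors and kinases that AKT restrains, 4 were lower and 0 higher (median -0.33, edgeR), against 1 higher and 1 lower by library size alone. All tested genes were called lower in 27.9% and higher in 28.9% of cases under TMM scaling. With library size scaling, 7741 of all 15175 were higher and 1929 lower. At an unadjusted p under 0.05 the counts were 5 lower and 0 higher, with 5 and 0 called by DESeq2 and 4 and 0 by limma voom. Foxo4 was 52.8 ± 3.95 CPM in TAC and 93.8 ± 12.8 CPM in Sham (-0.83, SE 0.10, adjusted p = 3.03e-05, edgeR) and was lower under both scalings. Foxo1 (-0.33) and Gsk3a (-0.22) had the opposite sign by library size alone, at 0.032 and 0.14 (28.3% of the exonic bases of Gsk3a are shared with an opposite-strand gene). The Gsk3a call was also lost when genes with low counts were kept in (adjusted p = 0.0689, range 0.00354 to 0.0786). Foxo3 (-0.41, SE 0.12) was at -0.05 by library size alone (adjusted p = 0.714, range 0.00437 to 0.714). Of 3 genes for IGF2BP proteins, which bind Igf2 and other mRNAs, 2 were tested and both were higher, against 28.9% of all tested genes. Igf2bp2 was 11.02 ± 2.47 CPM in TAC and 4.45 ± 1.18 CPM in Sham (1.31, SE 0.20, adjusted p = 0.000174, edgeR), and Igf2bp1 was 0.474 ± 0.213 CPM in TAC and 0.214 ± 0.158 CPM in Sham (adjusted p = 0.0495, with a range of 0.0114 to 0.124 over 19 alternatives and a call lost under most of them). Igf2bp1 had 29, 7, 11, 21 and 22 counts in TAC and 7, 5, 2, 4 and 4 counts in Sham. It passed the filter on low counts mainly through its TAC libraries, so its place among the genes called higher is not a result.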

How the data were processed

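Bulk RNA was sequenced from 5 TAC and 5 Sham libraries. The authors deposited raw read counts per gene symbol, 1 table per library, without normalization. STAR, bcl2fastq and the build mm10 are listed without versions in the submitters' processing notes. No counter, annotation or strand setting is named (not given in the sources used here). The last lines of every table are 5 tallies that name no gene and that stayed out of library sizes and tests. Reads in no gene were 3.76% of all reads in TAC and 3.12% in Sham on average, reads ambiguous between genes 5.79% in TAC and 4.31% in Sham, and reads aligned to several places 13.4% in TAC and 15.8% in Sham. Depth limits genes with few counts, such as Igfbp2 in Sham.

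Genes were tested in edgeR 4.0.16 (R 4.3.3) by its quasi-likelihood F test. The fit used TMM factors, default filterByExpr, robust dispersion estimates and a group term alone, and p-values were adjusted by Benjamini-Hochberg over 15175 genes. Each SE is the absolute log2 fold change over the root of its F value. Coordinates, exonic lengths and overlaps came from GENCODE M21 (GRCm38), to which 46294 symbols (95.7%) matched, and promoters from RefSeq. Ratios used 0.5 added to each count. Shares used counts per kilobase. Alternatives were other scalings and filters, DESeq2 1.42.0, limma 3.58.1 voom with quality weights, a replicate block, mitochondrial and haemoglobin genes removed, thinning, a threshold of 0.01, and libraries left out. No 2 libraries held identical values. Members, lists and tests were chosen with earlier results of these data known. Besides the 10 genes, the text names up to 4 called genes with the smallest adjusted p per pathway list, plus 1 of the rarer direction, Igf2, the genes of the ratios, and the 3 nearest genes to the largest increase and the largest decrease. Tables and figures used Python 3.11.15, pandas 2.3.3, numpy 2.4.6, scipy 1.17.1 and matplotlib 3.10.9.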

Additional observations from a re-analysis of the deposited data

Results flagged for a closer look

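In groups of 5 libraries, a value was picked out where its gap to the nearest other library exceeded 0.71 of the group's range. Of 92 groups looked at, 7 had such a value, where chance picks out about 1 in 20. Igfbp7 had 1123 CPM in TAC replicate 2, above the other TAC libraries (695 to 795 CPM). Irs2 had 167 CPM in Sham replicate 5, against 29.7 to 64.9 CPM in the other Sham libraries. The same library had 231 CPM of Sesn1 and 82.0 CPM of Grb10, the highest Sham values of both genes. Its ventricular marker sum was 540.2 CPM, against 21.2 to 161 CPM in the other Sham libraries. It also had the highest Sham sums of atrial cardiomyocyte (81318 CPM) and fibroblast (6404 CPM) markers. The part of that library's make-up in these values was not tested. TAC replicate 1 had 103 CPM of Grb14, 146 CPM of Pik3r1 and 47.3 CPM of Gsk3a, each the highest TAC value and each nearest to the Sham level among TAC libraries. That library also had the highest atrial cardiomyocyte marker sum of the TAC group, 45742 CPM, and its part in these values was not tested.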

How the results depend on the processing

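Scaling mattered most. With library size only, 7741 genes were higher and 1929 lower, 2 of the 10 IGF genes were lower, and 34 pathway genes were higher and 12 lower. Under the same scaling the log2 fold change reversed for Igfbp4 (0.24), Foxo1 (0.032) and Gsk3a (0.14), by construction of the scaling, which moved the median of all genes to 0.37. At an adjusted p under 0.01, 12 pathway genes were higher, a stricter threshold by construction. Igfbp3, Igfbp5, Igfbp6, Igfbp7 and Igfbpl1 kept their calls under 21 alternatives. Igfbp2, which was testable through its TAC counts, is not read this way. With 1 library left out, the log2 fold change of Igfbp7 ran from 2.36 to 2.55, of Igfbp3 from 1.68 to 2.00, of Igfbp5 from -1.56 to -1.36 and of Igfbp6 from -1.37 to -0.95. For counts of calls and the ratios, 203 comparisons with an alternative changed little and 6 moved. A CPM filter of 1 in 5 libraries left Igfbp2 untested. Same-numbered TAC and Sham libraries did not deviate together (correlations from -0.0355 to 0.0796), so they were not paired. A replicate block gave 4103 genes higher and 3917 lower, and Igf2r (0.23, adjusted p = 0.0633) and Igf2bp1 (1.32, adjusted p = 0.0681) lost their calls. Few Sham counts limit the Igfbp2 fold change.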
